A study of Mus musculus with 17 samples.

Results

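The comparison was between 2 carriers of the same kind of cargo, an antisense oligonucleotide against the long noncoding RNA Malat1: OTV:Malat1, a transport vehicle that binds the transferrin receptor (TfR), and anti-TfR:Malat1, an antibody against that receptor. Its members were the 3 animals labelled OTV:Malat1 and the 6 labelled TfR-Malat1, 9 of the 17 animals of the series and 153308 of its 284074 nuclei. All 17 animals were female mice of 2.3 months, of the genotype hTfR KI HOM, that is, homozygous for a human TfR knock-in. Both conjugates had been given into the vein as 4 doses of 50 mg per kg over 24 days, and the posterior brain was taken 72 hours after the last dose. The other animals had received saline (n = 4) or the free Malat1 ASO at 4 doses of 2 mg per kg (n = 4). They entered the fits, where they informed the spread between animals and the batch terms, and so the batch-adjusted changes. The series' design calls the free dose equivalent in oligonucleotide, and the amount carried by each conjugate is not given separately in the sources used here. The controls carry the knock-in too, so the series holds no animal with the mouse receptor alone.

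TfR takes iron-loaded transferrin into cells and is abundant on the endothelial cells of brain capillaries, which is why ligands of it are used to carry drugs over the blood-brain barrier. An antisense oligonucleotide of this type pairs with its RNA in the cell, and the enzyme RNase H1 then cuts the RNA. Malat1 is a nuclear RNA found in speckles, the bodies that store splicing factors. It is among the most abundant nuclear RNAs and is a common test target for such oligonucleotides. In GENCODE M21 (GRCm38, the build that the submitters' processing notes call mm10) Malat1 lies on chromosome 19, from 5795690 to 5802672 on the minus strand, and is annotated as a lincRNA of 6983 bases.

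Nuclear RNA was counted by droplet sequencing as unique molecular identifiers (UMIs, counted RNA molecules). Each of the 9 animals gave 13841 to 18365 nuclei and 55393588 to 79866411 UMIs. The median nucleus held 2894 to 3095 UMIs in OTV:Malat1 and 3181 to 4052 in anti-TfR:Malat1, so the ranges of depth did not overlap. Any 2 of the 9 libraries shared 54 to 102 cell barcodes, and whether these were chance repeats of a barcode was not tested. The deposited metadata named 4 batches. Batches 2, 3 and 4 held 1 OTV:Malat1 animal each (replicates 1, 2 and 3), together with anti-TfR:Malat1 replicate 2, replicates 3 and 4, and replicates 5 and 6. Batch 1 held anti-TfR:Malat1 replicate 1 and no OTV:Malat1 animal.

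The authors' cell type labels divided the 9 animals into 105349 Neurons, 40026 Oligodendrocytes, 4151 Microglia, 2682 Astrocytes, 606 Vascular cells, 384 Perivascular macrophages and 110 Glia. Summed levels of 10 marker genes for the cell type matched 5 of these names. Oligodendrocyte markers reached 17625 to 20003 CPM (a gene's share of all UMIs of the label in 1 animal, scaled to 1e+06) in Oligodendrocytes, astrocyte markers 12650 to 15296 CPM in Astrocytes and microglia markers 8914 to 9682 CPM in Microglia. Neuron markers reached 13930 to 14714 CPM in Neurons and perivascular macrophage markers 10868 to 15482 CPM in Perivascular macrophages. The label Vascular cells mixed fibroblast-like (4351 to 6502 CPM), mural (2323 to 4532 CPM), endothelial (1752 to 8663 CPM) and astrocyte markers (1886 to 3974 CPM), and 1203 of its 1226 nuclei in the series lay in cluster 14 together with 4793 labelled Astrocytes. The label Glia held 14799 and 20468 CPM of ependymal and choroid plexus markers in its 2 animals with at least 20 nuclei, and could not be fitted. No label was given to oligodendrocyte precursors. Cluster 13, led by the precursor genes Vcan and Pdgfra, was labelled Neurons for 94.3% of its nuclei.

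In oligodendrocytes, the myelin-forming cells, Malat1 was much lower under OTV:Malat1 than under anti-TfR:Malat1, with a ratio of 0.241. Malat1 took 1.90%, 1.61% and 1.497% of the UMIs of oligodendrocytes in OTV:Malat1 replicates 1 to 3. In the 6 anti-TfR:Malat1 animals it took 5.91% at the lowest, 6.64% at the median and 8.75% at the highest. All 3 OTV:Malat1 animals thus lay far below every anti-TfR:Malat1 animal. The log2 change was -2.15 (SE 0.12, 95% interval -2.40 to -1.90, edgeR quasi-likelihood test with batch as a block, adjusted p 8.1e-09 after Benjamini-Hochberg adjustment over all genes). Within batches 2, 3 and 4 the linear ratio of the conjugates (OTV:Malat1 over the antibody's) was 0.274, 0.196 and 0.249. Malat1 passed the threshold, an adjusted p of 0.05, in each of the 20 alternatives fitted for this label, with log2 changes from -2.37 to -1.99.

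Malat1 was the only gene called in oligodendrocytes, 1 of 14419 tested (0.00694%). Of the 14418 other genes, 651 (4.52%) had an unadjusted p under 0.05, 315 higher and 336 lower in OTV:Malat1. The 95% interval of the change lay within 2-fold in either direction for 13183 of them (91.4%), with a median level of 20.8 CPM over the 17 animals. DESeq2 called 1 other gene, Wwox. CPM values are per total UMIs with Malat1 included, while the log2 changes rest on library sizes normalised by TMM and are adjusted for batch, so the CPM and the log2 change of a gene can differ in size and, where small, in sign.

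**Figure D1:**
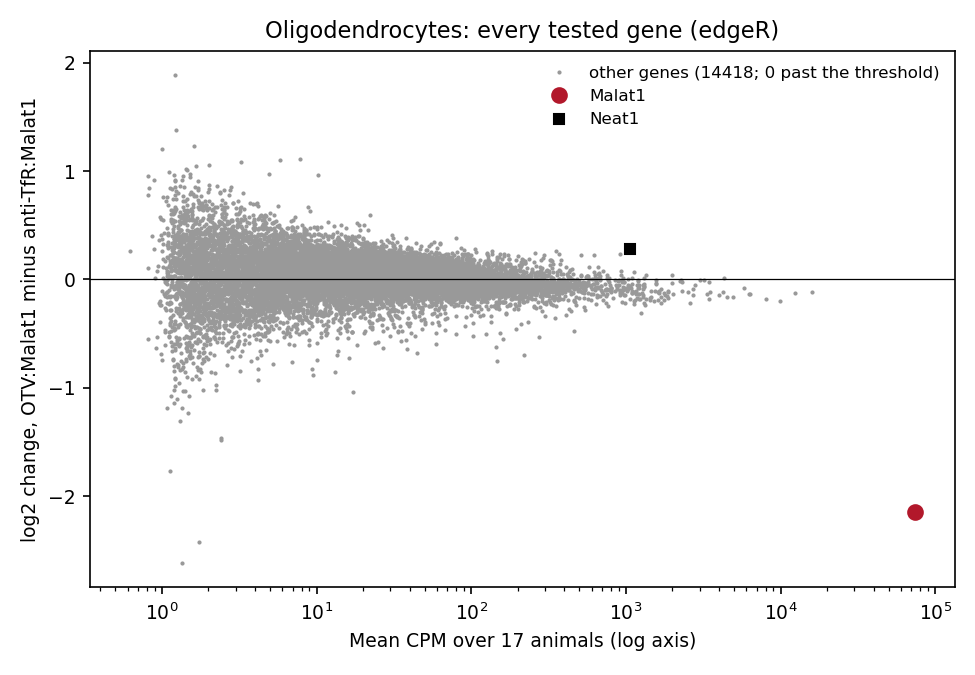
Each point is a gene tested in oligodendrocytes, with its mean level over the 17 animals (CPM, log axis) against its log2 change in OTV:Malat1 minus anti-TfR:Malat1 from edgeR. Malat1 stands alone at the right, at -2.15, with only 2 genes lower, both at under 2 CPM, while Neat1, another abundant nuclear RNA, lies at 0.28.

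Astrocytes, which wrap the capillaries with their end-feet, showed the next largest difference. Malat1 took 3.47%, 3.33% and 3.10% of their UMIs in the 3 OTV:Malat1 animals, and 5.21% at the lowest, 6.17% at the median and 7.33% at the highest of the anti-TfR:Malat1 animals, with no overlap. The log2 change was -0.94 (SE 0.13, edgeR adjusted p 1.6e-04), a ratio of 0.479 to 0.545 within batches. It passed in all 20 alternatives, with adjusted p up to 0.0151. Malat1 was again the only gene called, 1 of 8547 (0.0117%), and 358 of the other genes (4.19%) had an unadjusted p under 0.05.

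Microglia, the resident immune cells, held less Malat1 under OTV:Malat1 as well, by a smaller step. The 3 OTV:Malat1 animals were at 3.55%, 3.29% and 3.06%, and the anti-TfR:Malat1 animals at 3.97%, 4.46% and 5.26% (lowest, median and highest). The groups did not overlap, and the gap between the closest animals was small. The log2 change was -0.49 (SE 0.08, edgeR adjusted p 0.0134), and Malat1 was the only gene called of 9104 (0.011%), with 378 others (4.15%) at an unadjusted p under 0.05. This call was lost in 7 of 20 alternatives, over which the adjusted p ran from 2.3e-51 to 0.998. The lowest came from the fit with no filter on low counts, where the SE was 0.03 in place of 0.08. Among the 7 were DESeq2 (adjusted p 0.154), the fit with no batch block (0.98) and the fit without OTV:Malat1 replicate 2 (0.998). Those fits left changes of -0.49, -0.50 and -0.39, with unadjusted p-values of 1.7e-05 (DESeq2), 2.4e-04 and 1.3e-04 (edgeR). Without the authors' doublets the change was -0.42 (adjusted p 0.0656), and without anti-TfR:Malat1 replicates 3 and 4 in turn it was -0.47 and -0.47 (adjusted p 0.0574 and 0.0814).

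Perivascular macrophages, which sit in the spaces around vessels, gave the same direction without a call. Malat1 took 3.62%, 4.14% and 3.85% of their UMIs in OTV:Malat1, against 4.45%, 5.49% and 6.69% (lowest, median and highest) in anti-TfR:Malat1. The groups did not overlap, but each animal held only 31 to 63 of these nuclei. The log2 change was -0.54 (SE 0.11, edgeR adjusted p 0.0616), and 0 of 1418 genes were called (0%), with 63 of the others (4.45%) at an unadjusted p under 0.05. Malat1 passed in 5 of 18 alternatives, with log2 changes from -0.74 to -0.45 and adjusted p from 3.3e-26 to 0.998 over the 18. The lowest came from the fit with no filter on low counts, where the SE was 0.055 in place of 0.11.

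Neurons overlapped between the conjugates over all animals, but not within batches. Malat1 took 4.58%, 4.76% and 3.49% of their UMIs in OTV:Malat1, and 4.36%, 5.64% and 7.11% (lowest, median and highest) in anti-TfR:Malat1. The lowest anti-TfR:Malat1 animal was replicate 1, of the batch with no OTV:Malat1 animal, and it lay below 2 of the 3 OTV:Malat1 animals. Within batches 2, 3 and 4 every anti-TfR:Malat1 animal lay above the OTV:Malat1 animal, and the linear ratios were 0.780, 0.680 and 0.658. The log2 change of -0.55 (SE 0.13) had an unadjusted p of 4.6e-04 in edgeR and an adjusted p of 0.898. Of 20906 genes 0 were called (0%), and 957 of the others (4.58%) had an unadjusted p under 0.05. DESeq2 called 1 other gene, Efna5.

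In vascular cells the difference between the carriers was near 0. Malat1 took 7.80%, 8.33% and 6.82% of their UMIs in OTV:Malat1, and 6.77%, 7.86% and 10.3% (lowest, median and highest) in anti-TfR:Malat1, so the OTV:Malat1 animals lay within the other group. The log2 change was -0.0075 (95% interval -0.29 to 0.28, edgeR adjusted p 0.999). Of 3312 genes 0 were called (0%), and 167 of the others (5.04%) had an unadjusted p under 0.05. The 95% interval of the change lay within 2-fold in either direction for only 48.5% of these others. That share was 54.3% in perivascular macrophages, 79.1% in microglia, 83.8% in astrocytes, 91.4% in oligodendrocytes and 92.3% in neurons. Changes of other genes were thus bounded less well in the labels of few nuclei. With 42 to 101 nuclei per animal, differences inside the mixed label, such as one in endothelial nuclei alone, were not resolved by this sum.

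**Figure D2:**
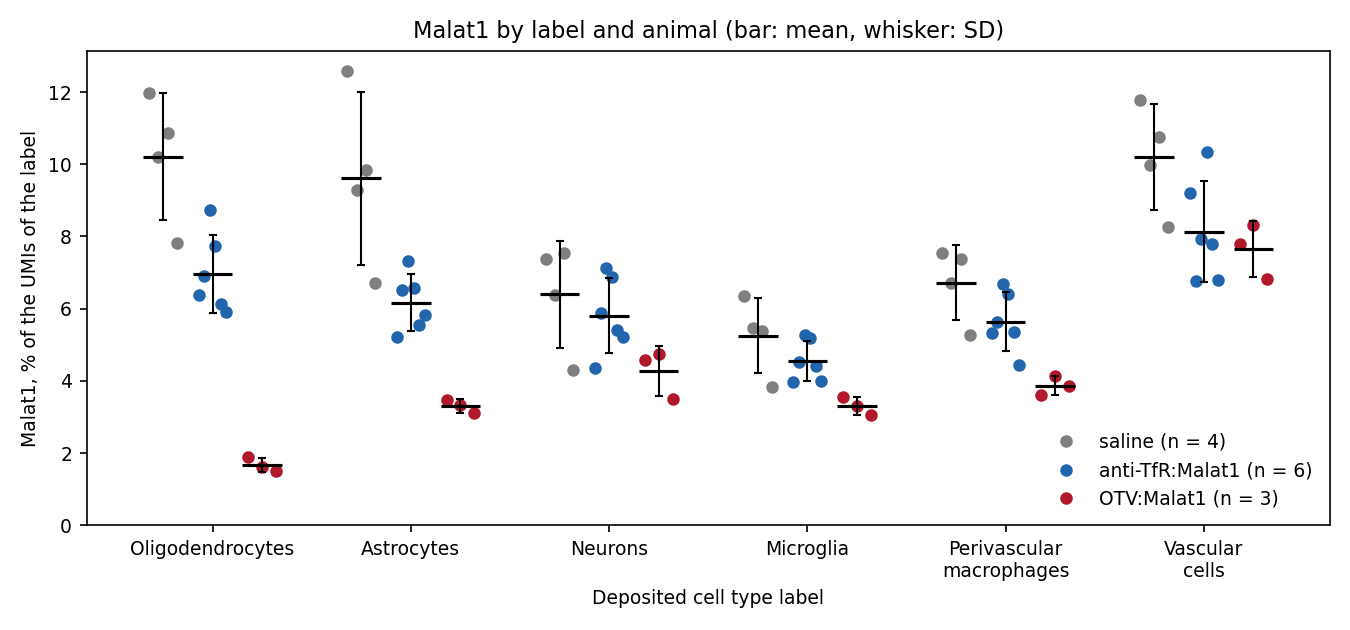
Malat1 as a percentage of the UMIs of each deposited label (vertical axis, from 0), with 1 point per animal, the group mean (bar) and SD (whisker). The OTV:Malat1 points (red) lie below all anti-TfR:Malat1 points (blue) in oligodendrocytes, astrocytes, microglia and perivascular macrophages, and overlap with them in neurons and vascular cells; saline (grey) is shown for reference.

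An exact permutation test of log2(CPM + 1) over the 9 animals was run beside the fits. The 4 labels of lower Malat1 named above had no overlap and reached the smallest two-sided p that 3 animals against 6 allow, 0.0238, or 0.0357 after Benjamini-Hochberg adjustment over the 6 labels. Their differences were -2.06 in oligodendrocytes, -0.90 in astrocytes, -0.53 in perivascular macrophages and -0.46 in microglia. Neurons differed by -0.43 (exact p 0.0714) and vascular cells by -0.08 (exact p 0.714). With labels moved only within batches the same 4 differences were -2.07, -0.95, -0.55 and -0.49, but that test cannot go below 0.111.

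Both conjugates were also set beside the saline animals, which the 2 comparisons share. In oligodendrocytes mean Malat1 was 16.3% of the saline mean under OTV:Malat1 and 68.2% under anti-TfR:Malat1, and in astrocytes 34.3% and 64.2%. The pairs of values were 62.8% and 86.7% in microglia, 57.5% and 83.8% in perivascular macrophages, 66.8% and 90.8% in neurons, and 75.0% and 79.8% in vascular cells. Among these 6 labels the values of the 2 carriers stood closest in vascular cells. The percentages pool the batches, of which batch 1 had no OTV:Malat1 animal. In batch 4 the anti-TfR:Malat1 mean was above saline in neurons (linear ratio 1.23) and microglia (1.10), where OTV:Malat1 stood at 0.810 and 0.798.

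To test whether the difference between the conjugates in a label differed from that in neurons, the log2 level in neurons was subtracted within each animal. Oligodendrocytes lay 1.35 below neurons in OTV:Malat1 (-1.35 ± 0.18, SD, n = 3) and above them in anti-TfR:Malat1 (0.27 ± 0.15, SD, n = 6). The difference between the conjugates was -1.62 (exact p 0.0238, adjusted p 0.0595 over 5 labels). In astrocytes it was -0.46 (exact p 0.0238, adjusted p 0.0595), from -0.36 ± 0.17 (SD, n = 3) to 0.10 ± 0.11 (SD, n = 6). Both had no overlap between animals, and neither passed after adjustment. With only these labels at the smallest p possible (0.0238), their adjusted p could not fall under 0.0595, however large the difference. The adjusted test thus could not decide here. Microglia (-0.02, exact p 0.833) and perivascular macrophages (-0.10, exact p 0.524) gave differences within the spread between animals, and vascular cells one of 0.36 (exact p 0.143).

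Per nucleus, each count was thinned at random to 500 UMIs so that depth was equal. The median oligodendrocyte then held 7, 5 and 6 Malat1 UMIs of 500 in the 3 OTV:Malat1 animals, and 29 to 42 in the anti-TfR:Malat1 animals. A nucleus was called low at or under 15 Malat1 UMIs, the 10th percentile of anti-TfR:Malat1 oligodendrocytes. By that measure 90.2%, 94.3% and 95.2% of oligodendrocytes were low in OTV:Malat1, against 4.78%, 10.3% and 17.6% (lowest, median and highest) in anti-TfR:Malat1. The difference was 82.4 percentage points (permutation p 0.0238, adjusted p 0.0286 over 6 labels). The cut was set from the anti-TfR:Malat1 nuclei and held fixed as labels moved, so permutation p-values for shares of low nuclei are not exact. At the other end, 1.06%, 1.16% and 0.48% of OTV:Malat1 oligodendrocytes reached the anti-TfR:Malat1 median of 34 UMIs. The shift thus took in nearly all oligodendrocytes.

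The mean 10th and 90th percentiles of oligodendrocytes were 15.5 and 51.8 Malat1 UMIs of 500 in anti-TfR:Malat1, 34.8 and 70.2 in saline, and 2 and 13.3 in OTV:Malat1. In astrocytes 48.2%, 52.0% and 55.0% of nuclei were low (at or under 15 UMIs) in OTV:Malat1, and 4.91% to 13.8% in anti-TfR:Malat1. Astrocytes were thus split about the cut, with 9.40% to 12.8% of OTV:Malat1 nuclei still at or above the anti-TfR:Malat1 median of 31 UMIs. Low nuclei made up 31.5% to 52.0% of microglia in OTV:Malat1 against 4.58% to 22.9%, and 29.0% to 53.1% of perivascular macrophages against 2.22% to 24.4%. In neurons they made up 28.4% to 46.1% against 4.65% to 24.1%, with no overlap, although the neuron totals overlapped. Each of these differences had the smallest permutation p possible (0.0238, adjusted 0.0286), not exact for the same reason. The neuron label included nuclei of cluster 2, led by oligodendrocyte genes and described below. Whether the shares of low neurons stay apart without them was not tested. In vascular cells, with the cut at 14 UMIs, no difference was detected (7.27% to 11.1% against 3.96% to 17.5%, permutation p 0.667).

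**Figure D3:**
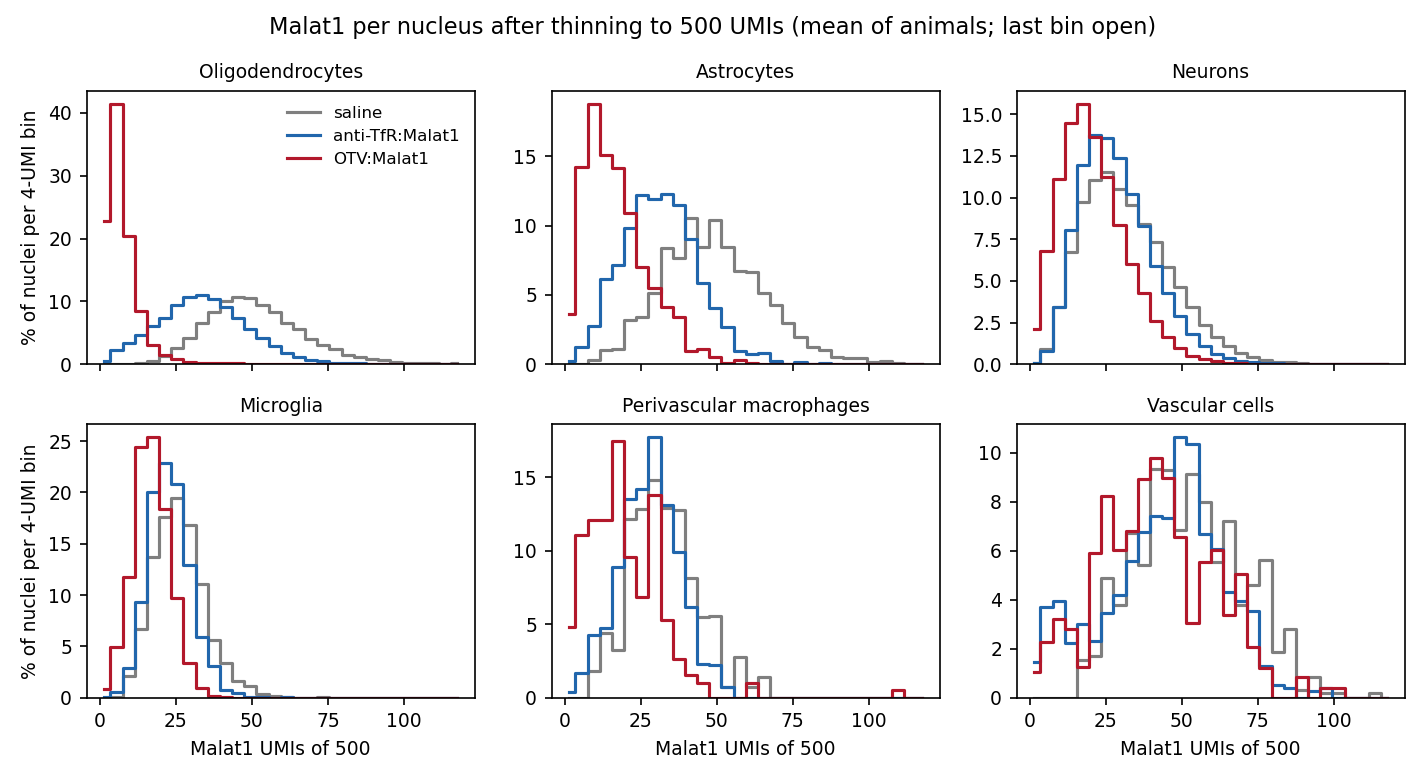
Distribution of Malat1 over nuclei of each label after thinning to 500 UMIs: the horizontal axis is Malat1 UMIs of 500 (bins of 4), the vertical axis the percentage of nuclei, averaged over animals of saline (grey), anti-TfR:Malat1 (blue) and OTV:Malat1 (red). In oligodendrocytes the OTV:Malat1 curve is a peak at the left with 93.3% of nuclei at or under 15 UMIs, and in vascular cells the red and blue curves overlap over their whole range.

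The deposited clusters cut across the labels in part. Of 20 clusters 19 had enough nuclei, and the OTV:Malat1 mean was the lower of the pair in all 19. The 3 clusters led by myelin and oligodendrocyte genes stood apart. Cluster 0 (led by Prr5l and St18, with Mbp and Mog) held 1.57%, 1.23% and 1.25% in OTV:Malat1 against 5.68% to 8.63% in anti-TfR:Malat1, a log2 difference of -2.32. Cluster 2 (Aspa, Il33, Car2) differed by -2.28 and cluster 15 (Mobp, Mbp) by -2.18. Next came cluster 14, with the astrocyte gene Slc1a3 among its leading genes, at -0.64. The other 15 clusters lay between -0.63 and -0.09 on the log2 scale.

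Clusters led by genes of earlier stages of the oligodendrocyte lineage had smaller differences, which were not tested against those of clusters 0, 2 and 15. Cluster 13, led by Vcan and Pdgfra, the receptor that marks precursors, held 4.63%, 4.84% and 3.88% of Malat1 in OTV:Malat1 and 3.95%, 5.18% and 6.495% (lowest, median and highest) in anti-TfR:Malat1. Its groups overlapped, and the difference was -0.22 (exact p 0.238), or -0.30 averaged within batches. Cluster 17 was led by 9630013A20Rik, Tns3, Itpr2 and Bcas1, genes known from oligodendrocytes that are just forming, and held 5.08%, 5.89% and 4.30% against 5.04% to 8.02%, a difference of -0.32 (exact p 0.167). Averaged within batches it was -0.38. Of cluster 17, 76.5% of nuclei were doublets by the authors' call, and without them the difference over all animals was -0.23 (exact p 0.262). Within the label Oligodendrocytes itself, the nuclei of cluster 17 held 6.86% ± 1.20 (SD, n = 3) against 8.11% ± 1.46 (SD, n = 6) and those of cluster 13 held 4.35% ± 0.73 (SD, n = 3) against 4.80% ± 0.88 (SD, n = 5). Those of clusters 0, 2 and 15 held 1.35%, 1.39% and 1.61% against 6.81%, 7.02% and 7.56%. Those of cluster 18, where 82.7% of all nuclei were doublets by the authors' call, held 2.28% ± 0.44 (SD, n = 3) against 5.43% ± 0.44 (SD, n = 4). Their log2 difference was -1.26, on 99 and 111 nuclei. With the label restricted to clusters 0, 2 and 15 the difference of the label grew from -2.06 to -2.30, an alternative chosen after these values had been seen. Restricted likewise to clusters mainly of their own label, astrocytes went from -0.90 to -0.92 and microglia shrank from -0.46 to -0.38 (exact permutation p 0.0238 each).

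Nuclei with a neuron label in an oligodendrocyte cluster showed the large difference as well. In cluster 2, 5818 nuclei were labelled Neurons. Those of the 9 animals (1077 in OTV:Malat1 and 1960 in anti-TfR:Malat1) held 1.73% ± 0.28 (SD, n = 3) of Malat1 against 6.91% ± 0.89 (SD, n = 6), a log2 difference of -2.003, beside -2.33 for the nuclei of the same cluster labelled Oligodendrocytes. With the neuron label restricted to clusters made up mainly of it, the neuron difference was -0.43 (exact p 0.0714), as before. That restriction kept clusters 13, 17 and 18, whose leading genes are not those of neurons, with 7336, 1785 and 1656 nuclei labelled Neurons.

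In the 11 clusters with 99.8% or more of their nuclei labelled Neurons, the conjugates overlapped over all animals in all but 1. The log2 differences were -0.63 in cluster 4 (led by 6330411D24Rik and Kcnmb2), -0.53 in cluster 3 (Rorb), -0.50 in cluster 6 (Hs3st2), -0.49 in cluster 12 (Prkcd, Lef1, Tcf7l2), -0.42 in cluster 5 (Tafa1), -0.41 in cluster 1 (Gad2, Dlx6os1), -0.40 in cluster 8 (Tshz2) and -0.36 in cluster 7 (Hs3st4, Foxp2, Tle4). Cluster 12, with 3.48%, 3.44% and 2.85% against 3.49% to 5.48%, was the one of these with no overlap (exact p 0.0238), by a margin of under 0.1 percentage points. The smallest differences were -0.21 in cluster 9 (Glis3, Trpc6), -0.13 in cluster 10 (the striatal genes Drd2, Rgs9 and Penk) and -0.09 in cluster 16 (Gabra6, a gene of cerebellar granule neurons). In cluster 10 the OTV:Malat1 animals ran from 3.89% to 6.73% and the anti-TfR:Malat1 animals from 4.08% to 6.78%, so the ranges nearly coincided. Of clusters 4 and 6, 45.0% and 62.0% of nuclei were doublets by the authors' call, and without them the differences were -0.67 and -0.47.

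Over the 19 clusters, 7 had no overlap between the 3 and the 6 animals: 0, 2, 11, 12, 14, 15 and 18. Their exact p was 0.0238 and, adjusted over the 19, 0.0646, so 0 passed. An exact p of 0.0238 is the smallest possible. With 7 of 19 clusters at it, their adjusted p could not be lower, however large the difference. Cluster 11, led by the microglial genes Inpp5d and Mertk, differed by -0.36, and cluster 18, led by the same genes but with 82.7% doublets, by -0.50.

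**Figure D4:**
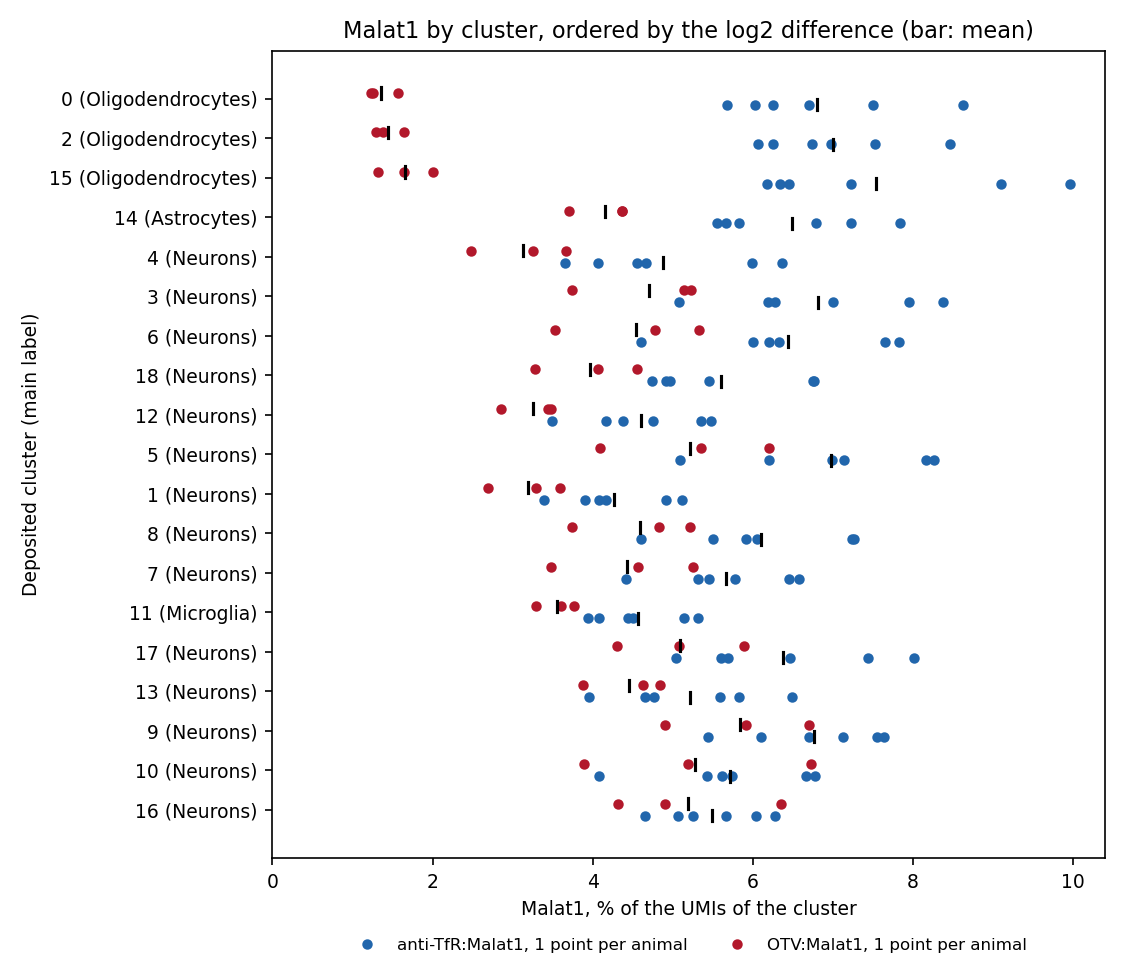
Malat1 as a percentage of the UMIs of each of 19 deposited clusters (horizontal axis, from 0), with 1 point per animal of anti-TfR:Malat1 (blue) and OTV:Malat1 (red) and a bar at each mean, ordered by log2 difference. Clusters 0, 2 and 15 at the top show wide gaps, with OTV:Malat1 at or under 2.01%, and the gaps close toward clusters 10 and 16.

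No difference in cell make-up was detected between the conjugates. Oligodendrocytes were 27.0% ± 4.45 (SD, n = 3) of nuclei in OTV:Malat1 and 25.8% ± 4.07 (SD, n = 6) in anti-TfR:Malat1, a difference of 1.18 percentage points (exact p 0.714). Of the 7 labels 0 passed the test in share, and all 7 overlapped. RNA of oligodendrocyte marker genes was counted in the other labels, with ranges that overlapped between the conjugates in all 5. Summed oligodendrocyte markers were 1398 to 2917 CPM in OTV:Malat1 microglia and 1152 to 1776 in anti-TfR:Malat1 microglia, 1026 to 1702 against 804 to 1456 CPM in astrocytes, 2226 to 4757 against 789 to 2882 CPM in perivascular macrophages, 1912 to 2885 against 783 to 2606 CPM in vascular cells, and 497 to 838 against 464 to 589 CPM in neurons. All 10 markers were detected in both groups in these 5 labels. The part of this RNA in the Malat1 differences of these labels was not tested.

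Genes of myelin, a list of 20, were compared in every label, and 0 passed the adjusted test in any. In oligodendrocytes, where they belong, 0 of 20 had an unadjusted p under 0.05 and their median log2 change was -0.004, beside 0.02 for all other genes. Mbp, the main protein of compact myelin, was at 4459, 4168 and 4856 CPM in OTV:Malat1 and between 3871 and 4833 CPM in anti-TfR:Malat1 (log2 change 0.02). In other labels the medians were higher: 0.40 in astrocytes (5 of 17 members with an unadjusted p under 0.05, all higher: Mbp, Mog, Mobp, Cnp and Cldn11), 0.31 in microglia (5 of 18, all higher, among them Mog, Mag, Mal and Trf), 0.19 in neurons (2 of 20), 0.68 in perivascular macrophages (1 of 4) and 0.62 in vascular cells (3 of 10). The medians of all other genes in those labels lay between -0.001 and 0.015. The share of all other genes with an unadjusted p under 0.05 was 4.19% in astrocytes, 4.15% in microglia, 4.58% in neurons, 4.45% in perivascular macrophages and 5.04% in vascular cells.

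Neat1, the nuclear RNA that builds paraspeckles and is transcribed beside Malat1, did not pass the test in any label. In oligodendrocytes it stood at 1415, 1371 and 1176 CPM in OTV:Malat1, and at 758, 1010 and 1096 CPM (lowest, median and highest) in anti-TfR:Malat1, with no overlap. Of the 14418 genes other than Malat1 in this label, 572 had no overlap, in CPM that keep Malat1 in the total. The log2 change of Neat1 was 0.28 (SE 0.10), with an edgeR unadjusted p of 0.0159 and an adjusted p of 0.974. In neurons it was 36.4, 41.2 and 24.8 CPM against 18.3 to 28.9 CPM, with overlap (change 0.32, unadjusted p 0.0104, adjusted p 0.898). The changes were 0.26 in astrocytes, 0.22 in microglia, 0.25 in vascular cells and -0.10 in perivascular macrophages, all with an edgeR adjusted p over 0.9.

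Of 20 nuclear long noncoding RNAs other than Malat1, 1 (Neat1) had an unadjusted p under 0.05 in oligodendrocytes, and the median change was -0.11. In neurons 4 of 20 did, Neat1 higher and Rian (-0.17), Snhg14 (-0.15) and Pantr1 (-0.19) lower, beside 4.58% of all other neuron genes, and the median was -0.05. In oligodendrocytes Sox2ot, the most abundant of them, was at 2399, 2619 and 2288 CPM in OTV:Malat1 and between 2159 and 2520 CPM in anti-TfR:Malat1 (change -0.02). Xist, the RNA of the inactive X chromosome, had a log2 change of -0.22 with a wide interval (-1.73 to 1.29). Leaving out each animal of the conjugates in turn kept the change between -0.30 and -0.068. The interval rests also on the spread of the saline and free Malat1 ASO animals, whose Xist levels are not given here. The source of its width was not tested. In oligodendrocytes too, paraspeckle proteins (1 of 20 with an unadjusted p under 0.05, median -0.007; Sfpq -0.005) and splicing proteins of speckles (1 of 25, median 0.01; Luc7l2 -0.02, Srrm2 0.11) gave counts near the background of 4.52%. Of the protein-coding neighbours of Malat1, 18 of 20 could be tested and 2, Slc25a45 and Pola2, had an unadjusted p under 0.05, both higher. Their median was 0.11, with Fau at 0.13 and Frmd8 at 0.08.

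No difference in the receptor's RNA was detected. Tfrc, the mouse gene for TfR, was at 9.06, 13.7 and 10.4 CPM in OTV:Malat1 oligodendrocytes and between 9.002 and 14.4 CPM in anti-TfR:Malat1 ones (change -0.31, 95% interval -0.69 to 0.07). It was at 22.6, 25.3 and 23.2 CPM in OTV:Malat1 neurons and between 20.5 and 22.8 CPM in anti-TfR:Malat1 ones (change -0.007, 95% interval -0.18 to 0.16, with a CPM mean that was higher in OTV:Malat1). In astrocytes the change was -0.48 on 5 to 19 UMIs per animal, and in the other 3 labels Tfrc was too low to be tested. Whether reads of the human knock-in sequence were counted under this name is not given in the sources used here. Of the list for the transferrin cycle and iron, 0 of 14 members tested had an unadjusted p under 0.05 in oligodendrocytes (median 0.003; Trf 0.04, Fth1 0.22). In microglia 2 of 12 did, Trf (0.40) and Fbxl5 (0.36), both higher (median 0.15, beside a background of 4.15%), and in vascular cells 1 of 7, Trf (0.87; median 0.19, background 5.04%). Trf is in the myelin list too and among the leading genes of oligodendrocyte cluster 0, and the medians of the summed oligodendrocyte markers were 1991 against 1698 CPM in microglia and 2271 against 1620 CPM in vascular cells (OTV:Malat1 against anti-TfR:Malat1). The part of oligodendrocyte RNA in these values was not tested. In oligodendrocytes 1 of 20 did of the list for RNase H and nuclear RNA decay (median -0.01; Ythdc1 0.03, Xrn1 -0.08), and of the list for endosomes and lysosomes 0 of 27 (median 0.03; Snx1 0.009, Lamp1 0.10).

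Genes of immune and stress responses were compared next, beside backgrounds of 4.15% of all other genes with an unadjusted p under 0.05 in microglia and 4.52% in oligodendrocytes. In microglia 9 of 12 Fc receptor and C1q genes could be tested. Of these 1, Fcgr3, an activating receptor for antibody, had an unadjusted p under 0.05, with a log2 change of -0.45, and the median was -0.16. C1qb was at 242, 218 and 189 CPM against 186 to 315 CPM (change -0.16), and C1qc had a log2 change of -0.29. Genes of activated microglia gave 0 of 7 (median 0.17; Cd9 0.23, Ctsb 0.20). The interferon response gave 0 of 8 in oligodendrocytes (median 0.07; Ifi27 0.14, Stat2 0.04) and 1 of 7 in microglia, Stat2, at 60.0, 33.5 and 48.8 CPM against 23.2 to 35.9 CPM (change 0.59). Of p53 targets 0 of 13 had an unadjusted p under 0.05 in oligodendrocytes (median 0.02; Sesn1 -0.10, Mdm2 0.02), and in microglia 2 of 6 did, Bax higher (0.77) and Plk2 lower (-1.02). Reactive astrocyte genes gave 0 of 2 tested in astrocytes (Stat3 -0.05, Gfap -0.27), and 1 of 3 in oligodendrocytes, Gfap, the filament protein of astrocytes, on 4 to 17 UMIs per animal (change 0.91).

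Remaining lists in oligodendrocytes were mature state and stress genes, with 0 of 14 (median 0.007; Grm3 -0.13, Ptgds -0.04), cholesterol synthesis, with 1 of 18 (median 0.08; Srebf2 0.05, Msmo1 0.14), and immediate early genes, with 0 of 14 (median -0.21; Jun 0.14, Egr1 -0.20). In neurons 5 of 18 cholesterol genes had an unadjusted p under 0.05, all higher, beside 4.58% of all other genes. Among them were Fdps, Dhcr7, Mvd and Sqle. The median was 0.16 over the list and 0.015 over all other genes. All 18 members lay above 0, as did 11316 of 20905 other genes. The cholesterol medians were 0.006 in astrocytes and 0.10 in microglia. The myelin list in neurons had a median of 0.19, with 19 of 20 members above 0. The part of oligodendrocyte RNA in the cholesterol values was not tested. No member of any of the 16 lists passed the adjusted test in any label.

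**Figure D5:**
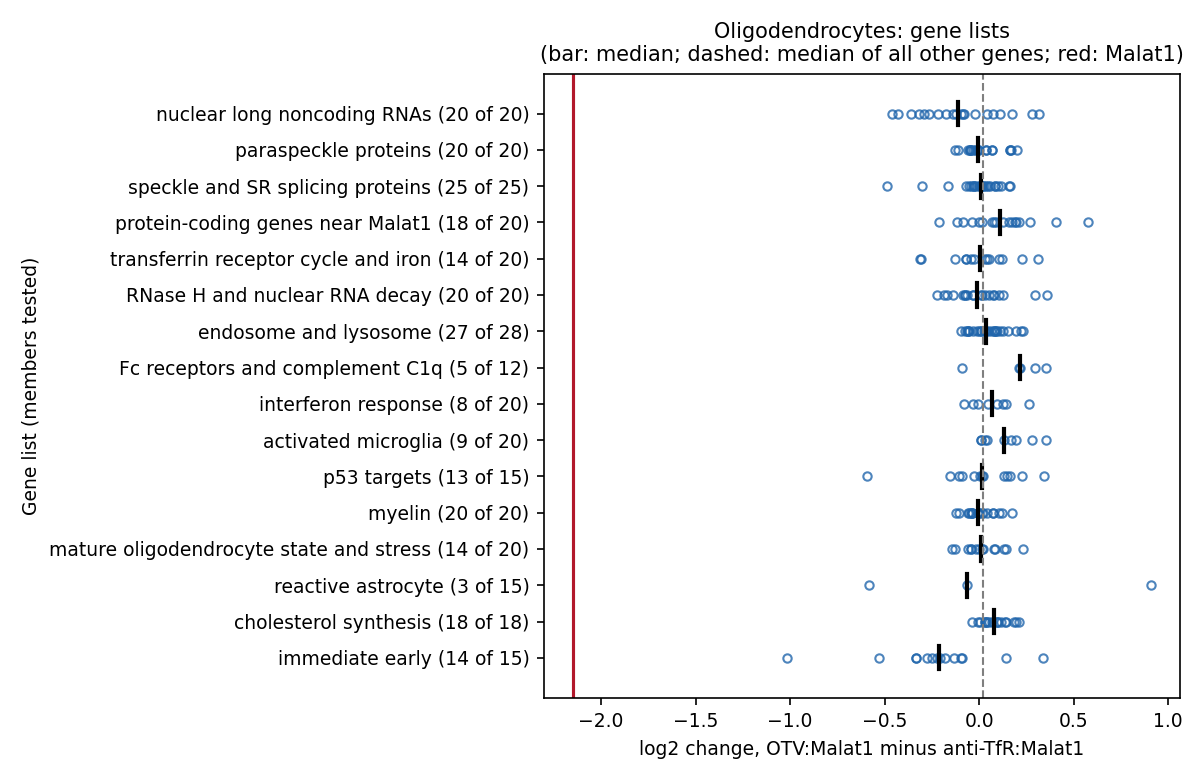
Log2 change in OTV:Malat1 minus anti-TfR:Malat1 in oligodendrocytes for each tested member (open points) of the 16 gene lists, with the median of the list (black bar), the median of all other genes (dashed line, 0.02) and Malat1 (red line, -2.15). The list medians lie between -0.21 and 0.21, far from the red line.

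Genes other than Malat1 with the lowest unadjusted p are given as values, since none was called. In oligodendrocytes they were Wwox, which encodes an oxidoreductase, at 416, 328 and 414 CPM against 412 to 544 CPM (change -0.48, edgeR adjusted p 0.175), Cenpw (1.89, on 1 to 15 UMIs per animal) and Slc35f2 (-1.48, on 4 to 17 UMIs). In astrocytes they were Ldb2 (-0.90, adjusted p 0.188), Pfn2 (0.68) and Adarb2 (-1.38). In neurons they were Efna5, an ephrin ligand, at 385, 386 and 378 CPM against 369 to 469 CPM (change -0.30), Sgcz (-0.23) and Bach2 (-0.28). In microglia they were Cntn4 (-0.99), Rnf5 (1.80) and Gsap (-0.53), and in perivascular macrophages Syt1 (-1.24) and Usp25 (-1.62). Syt1 is among the neuron markers used for the labels, which summed to 1923 CPM in perivascular macrophages over all animals. The part of neuron RNA in these values was not tested. In vascular cells Ptgds, the prostaglandin D synthase of meningeal cells and oligodendrocytes, was at 6084, 5536 and 3280 CPM in OTV:Malat1 and between 1776 and 2963 CPM in anti-TfR:Malat1 (change 1.09, adjusted p 0.196), with no overlap, followed by Ndnf (-1.41) and Dnajc6 (0.84). Of the 3311 genes other than Malat1 in vascular cells, 59 had no overlap.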

How the data were processed

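Nuclei of the posterior brain were sorted on DAPI and captured with 10x Genomics droplets, per the labels' protocols, and Cell Ranger 6.0.1, the build mm10 and Seurat 4 are named in the submitters' processing notes. The authors deposited 1 matrix of raw counts (UMIs) with metadata giving each nucleus's sample, batch, cluster, predicted label and doublet call. The prediction score deposited by the authors is a fraction from 0 to 1. Of 18 metadata columns 11 were not used. The labels number the samples without naming animals. Each sample was taken as 1 animal, and p-values measure the spread between samples. UMIs were summed per animal and label, leaving out sums of under 20 nuclei, and fitted with edgeR 4.0.16 (R 4.3.3; quasi-likelihood test, filterByExpr, TMM, group and batch, all 17 animals). P-values were adjusted by Benjamini-Hochberg over the genes of a label, with a threshold of 0.05, and Malat1 was counted apart. Malat1 levels were tested by exact two-sided permutation of log2(CPM + 1) over the 9 animals. For levels relative to neurons the within-animal difference in log2(CPM + 1) was permuted, and for shares of nuclei the percentage. The p-values for shares of low nuclei are not exact. Doublets by the deposited call (47758 nuclei, 16.8%) were kept, and left out as an alternative. Named genes were Malat1, Neat1, Tfrc, the 3 of lowest p per label where fewer than 3 were called, and the 2 most abundant members of each of 16 lists. Other genes were named after their values were seen: list members with an unadjusted p under 0.05. Some genes that these rules name are not reported here, but count in their lists. The members and lists were chosen with earlier results of these data known. The fit was tested on simulated data. DESeq2 1.42.0 was an alternative, as were size factors, filters, blocks, nucleus filters and leaving out each animal. The 9 animals held 55393588 to 79866411 UMIs each, and labels of few nuclei were measured less precisely.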

Additional observations from a re-analysis of the deposited data

Results flagged for a closer look

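Of 94 groups of 6 anti-TfR:Malat1 animals examined for 1 animal far from the rest, 7 were marked, where chance marks about 1 in 20. The share of nuclei labelled Glia was 0.318% in anti-TfR:Malat1 replicate 6, with the next animal at 0.0625%. In oligodendrocytes, replicate 6 was low in Slc35f2 (1.55 CPM, nearest 2.39) and high in Jun (47.8 CPM, nearest 29.6). Replicate 1 was low in Xist (1108 CPM, nearest 1354) and Msmo1 (63.9 CPM, nearest 77.9), and high in Frmd8 (110.6 CPM, nearest 97.4). In vascular cells replicate 1 was high in Dnajc6 (450.1 CPM, nearest 272.5).

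The difference between the carriers was set against that in neurons of the same animals for 5 labels, and 2 of them were picked out by their unadjusted p. The log2 difference relative to neurons was -1.62 in oligodendrocytes and -0.46 in astrocytes (exact permutation p 0.0238 each, lower in 3 of 3 OTV:Malat1 animals than in any of the 6 others). Neither passed after adjustment over the 5 labels (adjusted p 0.0595). With 2 of 5 labels at the smallest p possible, that adjusted p could not be lower, however large the difference.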

How the results depend on the processing

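The Malat1 call kept its direction and passed in all 20 alternatives in oligodendrocytes (log2 change -2.37 to -1.99) and in astrocytes (-1.15 to -0.81), and it missed the threshold in all 20 in neurons (-0.69 to -0.46). In microglia it was lost with DESeq2 (-0.49), with no batch block (-0.50), without doublets (-0.42) and in 3 fits that left out 1 animal, where the change ran from -0.55 to -0.39 over the 9 animals. In perivascular macrophages it passed with no filter on low counts (-0.63), with only the 2 conjugates (-0.57), with a prediction score of 0.8 or more (-0.51) and in 2 fits that left out 1 animal (range -0.69 to -0.45). In vascular cells the sign turned with only the 2 conjugates (0.018), without doublets (0.092), with nuclei of 1000 or more UMIs (0.077) and in 3 of the fits without 1 animal (range -0.084 to 0.038).

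Genes other than Malat1 were called with no filter on low counts in oligodendrocytes (1), astrocytes (7), microglia (2), perivascular macrophages (1) and vascular cells (8, among them Ptgds and 4 haemoglobin genes), and with DESeq2 in oligodendrocytes (1) and neurons (1). Vascular cells had 4 with nuclei of 1000 or more UMIs, 1 with a score of 0.8 or more and 0 to 5 without 1 animal. Astrocytes had 0 to 1 without 1 animal. With no filter on low counts the SE of Malat1 was smaller than in the main fit (0.068 against 0.126 in astrocytes, 0.084 against 0.136 in vascular cells). Whether the calls of that setting rest on too small a spread was not tested.

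Of the exact tests, 4 labels passed, and 0 when labels moved only within batches and 0 to 5 without 1 animal. For the share of low nuclei, whose permutation p-values are not exact, 5 labels passed, and 0 within batches and 0 to 5 without 1 animal. These designs cannot reach the threshold where their smallest p is too large, so their counts say nothing of stability. The oligodendrocyte difference in that share was 82.6 points within batches and 81.3 to 83.9 without 1 animal. With nuclei of 1000 or more UMIs 2 labels passed relative to neurons (oligodendrocytes -1.55, adjusted p 0.0476), but there the adjustment ran over 4 labels in place of 5, since perivascular macrophages gave no value, and the unadjusted p was the same 0.0238.

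The sample numbers do not pair the conjugates, since same-numbered animals lay in different batches and their deviations correlated at -0.01, 0.02 and -0.61 in neurons and at 0.35, 0.33 and -0.49 in oligodendrocytes. A fit with the replicate block in place of batch gave -2.37 in oligodendrocytes, -1.15 in astrocytes and -0.62 in microglia, where the call was lost, and called 3 other genes in vascular cells. With the replicate block in the permutation tests 0 labels passed in level and 0 in the share of low nuclei (84.8 points in oligodendrocytes). It turned the sign of Xist (0.14), Luc7l2 (0.11), Fau (-0.045), Trf (-0.085), Fth1 (-0.087), Ythdc1 (-0.0054), Snx1 (-0.10), Lamp1 (-0.19), Ifi27 (-0.079) and Mbp (-0.066) in oligodendrocytes, and of Tfrc in neurons (0.019).

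Other changes of sign, of values that had not passed the threshold, were those of Ythdc1 (-0.027), Mbp (-0.038) and Tfrc in neurons (6.8e-04) with no batch block, Mbp (-0.0018) with only the 2 conjugates, Snx1 (-0.0018 with DESeq2 and -0.0015 with its size factors), Stat3 in astrocytes (0.012, score of 0.8 or more), and Neat1 in microglia (-0.13, without doublets) and in vascular cells (-0.021, 50 or more nuclei). Malat1 turned sign in vascular cells in the exact test (0.011 without doublets, 0.084 with 1000 or more UMIs), in cluster 10 without doublets (0.018), and in microglia relative to neurons (0.017 without doublets, 0.017 within batches). The share of low vascular nuclei turned with the 25th percentile (5.35 points), and the oligodendrocyte share of nuclei with 1000 or more UMIs (-2.69 points). Leaving out 1 animal turned these (range over the fits, in oligodendrocytes unless named): Sox2ot (-0.069 to 0.014), Sfpq (-0.057 to 0.050), Luc7l2 (-0.079 to 0.014), Fau (-0.045 to 0.31), Trf (-0.0027 to 0.087), Fth1 (-0.055 to 0.42), Ythdc1 (-1.5e-04 to 0.056), Snx1 (-0.0704 to 0.075), Lamp1 (-0.038 to 0.28), Stat2 (-0.074 to 0.17), Mdm2 (-0.0104 to 0.039), Mbp (-0.042 to 0.051), Ptgds (-0.31 to 0.19), Jun (-0.0077 to 0.36), Egr1 (-0.56 to 0.16), Stat3 in astrocytes (-0.12 to 0.068), Tfrc in neurons (-0.062 to 0.0397), Neat1 in perivascular macrophages (-0.29 to 0.13), Neat1 in vascular cells (-0.051 to 0.44), Malat1 in vascular cells (exact test) (-0.14 to 0.0034), Malat1 in cluster 10 (-0.33 to 0.067), Malat1 in cluster 16 (-0.25 to 0.032), Malat1 relative to neurons in microglia (-0.11 to 0.0601), Malat1 relative to neurons in perivascular macrophages (-0.23 to 0.0049), the share of oligodendrocytes in points (-1.12 to 3.33). Perivascular macrophages could not be fitted with nuclei of 1000 or more UMIs or with 50 or more nuclei per animal. The causes of these changes were not tested.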
